A study of Mus musculus with 8 samples.

Results

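Transcripts of 46 genes that build the spindle, separate the chromosomes and divide the cell were followed in mouse Th1 cells. Th1 cells are T helper cells that make interferon gamma. The genes are a list of symbols with no threshold on their values, drawn up with earlier results of these data known, and all 46 were found among the 14453 genes that could be tied to a line of the deposited table. There were 4 groups with 2 RNA sequencing libraries each, all grown from CD4 T cells of C57BL/6 mice. The cells were stimulated on plates coated with antibodies to CD3 and CD28. IL-12 (2 ng/ml) and a blocking antibody to IL-4 (5 µg/ml) were present. In the knockdown experiment the cells were transduced with a hairpin targeting Pcbp1 (sh Pcbp1) or with a scrambled hairpin, and total RNA was sequenced after removal of ribosomal RNA. Pcbp1 codes for an RNA-binding protein that is also an iron chaperone for ferritin. In the CPX experiment the cells were treated with the iron chelator CPX (ciclopirox olamine) or with DMSO, and polyA RNA was sequenced. Neither the CPX dose and treatment time nor the interval after transduction is stated in the sources used. Nothing in the labels ties replicates to separate cultures or mice, so the p-values measure only the spread between these libraries, which may be technical.

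A cell enters mitosis when cyclins A and B activate the kinase CDK1, whose inhibitory phosphates are removed by CDC25 phosphatases. Polo-like and aurora kinases then shape the spindle, kinetochores attach chromosomes to microtubules, and the spindle checkpoint holds back the anaphase-promoting complex until all are attached. Most of these transcripts are made late in each cycle, so in activated T cells they accompany clonal expansion. In bulk RNA, fewer cells in mitosis and less of a transcript per cell cannot be told apart.

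The late timing is known to depend on 2 short promoter elements, the cell cycle genes homology region (CHR), bound by the DREAM and MuvB complexes, and the CCAAT box, bound by NF-Y. They were searched in the RefSeq promoters of build GRCm38.p6, windows of 300 bases with 250 before the annotated start and 50 from it on. The CHR was taken as TTTGAA and the NF-Y box as CCAAT, each on both strands (TTCAAA and ATTGG in reverse). A match to one can share a base with a match to the other, and a gene can have several promoters. Promoters were found for 39 of the 46 genes, 42 promoters in all, and 7 genes are named only (Ccna2, Aurkb, Cdc25c, Incenp, Kif20a, Tpx2 and Smc4). The CHR letters were in 33 of the 42 promoters (78.6%), against 17.9% of all 32851 promoters. Between 50 bases before and 24 after the start they were in 23 (54.8%), against 4.06% of all. At least 1 NF-Y box was in 33 (78.6%), against 37.4% of all, and at least 2 were in 21 (50%), against 11.7%. Both elements were in 29 (69.0%), against 6.95% of all promoters. These matches describe the letters and do not show binding. Other spellings of the elements were not searched, so a window without a match is not shown to lack the element.

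The promoters of 6 genes of the cyclin and kinase roles are shown. Of the genes of these roles with a promoter found, they have the smallest knockdown p (edgeR). Among them are genes that fell in both experiments (Cdk1, Ccnb1 and Ttk), the Plk1 rise, the Ccnb2 contrast and a gene called in neither (Cdc25b). The promoters are written 5′ to 3′ on the strand of the gene, with matches to either element in capitals.
Cdk1, chr10:69352863-69353162, minus strand: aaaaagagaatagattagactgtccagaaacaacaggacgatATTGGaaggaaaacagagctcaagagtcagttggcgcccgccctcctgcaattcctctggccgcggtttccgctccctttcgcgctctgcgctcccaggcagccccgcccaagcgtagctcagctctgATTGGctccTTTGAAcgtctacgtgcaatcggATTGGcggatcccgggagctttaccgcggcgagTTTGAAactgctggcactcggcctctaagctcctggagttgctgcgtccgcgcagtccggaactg
Ccnb1, chr13:100786437-100786736, minus strand: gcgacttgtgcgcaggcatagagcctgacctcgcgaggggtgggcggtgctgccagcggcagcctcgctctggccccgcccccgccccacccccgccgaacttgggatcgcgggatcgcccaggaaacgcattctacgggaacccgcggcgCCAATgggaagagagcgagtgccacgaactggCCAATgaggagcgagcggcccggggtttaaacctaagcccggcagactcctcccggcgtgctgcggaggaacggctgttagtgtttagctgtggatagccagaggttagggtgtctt
Ccnb2, chr9:70421505-70421804, minus strand: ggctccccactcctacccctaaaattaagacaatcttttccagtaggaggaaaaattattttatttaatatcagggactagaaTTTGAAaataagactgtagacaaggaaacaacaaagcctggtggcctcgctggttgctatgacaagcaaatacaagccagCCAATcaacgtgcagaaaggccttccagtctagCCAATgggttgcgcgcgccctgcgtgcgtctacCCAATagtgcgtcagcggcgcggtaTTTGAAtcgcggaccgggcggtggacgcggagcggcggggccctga
Cdc25b, chr2:131186698-131186997, plus strand: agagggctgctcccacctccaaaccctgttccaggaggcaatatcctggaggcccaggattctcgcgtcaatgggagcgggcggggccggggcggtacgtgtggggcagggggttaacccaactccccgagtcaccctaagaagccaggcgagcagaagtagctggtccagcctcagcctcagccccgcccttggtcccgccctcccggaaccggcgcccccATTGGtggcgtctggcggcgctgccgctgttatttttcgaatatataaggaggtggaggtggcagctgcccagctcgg
Plk1, chr7:122159185-122159484, plus strand: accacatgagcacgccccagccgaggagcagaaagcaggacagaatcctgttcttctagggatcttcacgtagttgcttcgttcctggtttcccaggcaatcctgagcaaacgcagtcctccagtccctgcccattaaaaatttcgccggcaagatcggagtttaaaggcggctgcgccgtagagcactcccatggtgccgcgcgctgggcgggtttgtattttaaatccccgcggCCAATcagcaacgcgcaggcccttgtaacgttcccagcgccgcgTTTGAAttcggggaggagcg
Ttk, chr9:83834439-83834738, plus strand: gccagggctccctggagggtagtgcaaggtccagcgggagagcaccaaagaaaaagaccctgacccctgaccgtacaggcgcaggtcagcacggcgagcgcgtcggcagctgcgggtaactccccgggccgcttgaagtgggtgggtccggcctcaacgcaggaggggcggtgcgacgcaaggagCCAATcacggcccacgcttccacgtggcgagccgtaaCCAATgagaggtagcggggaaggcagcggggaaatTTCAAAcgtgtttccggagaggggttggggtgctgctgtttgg
Cdk1 has CHR letters 15 and 71 bases before its start, with NF-Y boxes at 48, 80 and 208 bases before. Ccnb2 carries 3 NF-Y boxes, at 21, 54 and 87 bases before the start, with CHR letters 4 bases after the start and 167 bases before it. Plk1 has a single NF-Y box 14 bases before the start and CHR letters 30 bases after it, and Ttk has boxes at 28 and 65 bases before and CHR letters 7 bases after. Ccnb1 has boxes at 67 and 99 bases before its start and Cdc25b a single box at 28 bases before, and neither window holds the CHR letters. Calls were found with and without the CHR letters. Of the 30 genes with CHR letters, 10 fell and 1 rose after the knockdown and 9 fell with CPX. Of the 9 genes without them, 5 fell after the knockdown and 3 with CPX. Of all genes tested, 26.7% fell and 29.3% rose after the knockdown, and 24.8% fell with CPX.

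**Figure D1:**
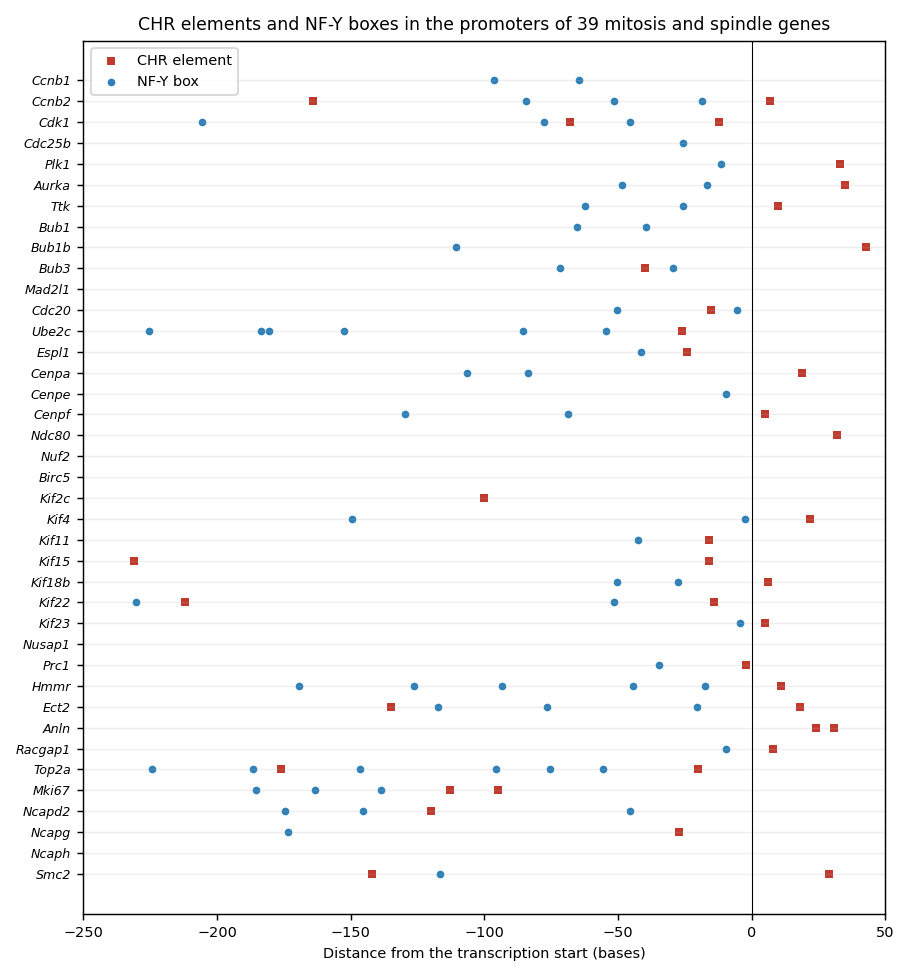
Positions of CHR and NF-Y letters in the promoters of the 39 genes found in the RefSeq table, 1 promoter per gene, as distance in bases from the annotated start (x axis). CHR matches gather near the start and NF-Y boxes upstream of it, while 9 genes, Ccnb1 and Cdc25b among them, have no CHR match in the window.

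The knockdown libraries held 14174293 to 15518303 reads in genes, and those of CPX and DMSO summed to 19193784 to 19662145 in a rescaled table (1.98 reads per unit). Levels are given as RPM, a gene's value per 1e+06 of its library's total, which is not corrected for transcript length. Pcbp1 itself was at 15.1 and 16.1 RPM with the Pcbp1 hairpin, against 44.0 and 51.7 RPM with the scrambled hairpin. It was at 238 and 199 RPM with CPX, against 506 and 538 RPM with DMSO. All 8 T helper markers looked at were present in every group. The CD8 T cell markers Cd8a and Cd8b1 split the knockdown libraries by number and not by hairpin, with a summed level of 92.0 and 11.6 RPM in replicates 1 and 2 of the Pcbp1 hairpin, against 90.5 and 11.9 RPM in those of the scrambled hairpin. In the CPX experiment the sum was 4.12 and 3.74 RPM with CPX, against 8.09 and 8.24 RPM with DMSO. Markers of other cell types (29 listed, Cd8a and Cd8b1 included) were matched to a line for 11 genes. Of these, 5 reached 1 RPM in the knockdown experiment and 10 in the CPX experiment. Their summed level was 148 and 41.9 RPM with the Pcbp1 hairpin, against 164 and 44.0 RPM with the scrambled hairpin. It was 46.1 and 47.5 RPM with CPX, against 13.2 and 16.6 RPM with DMSO. Whether counting used strand is not stated in the sources used, so reads of the 10 genes that overlap an exon of another protein-coding gene cannot be told from those of the partner (Ccna2, Cdc25b, Cdc25c, Cdc20, Ube2c, Kif4, Kif20a, Nusap1, Prc1 and Ncapg). Ccnb1, Ccnb2, Kif4 and Kif22 have named pseudogenes, and their values are likewise uncertain.

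After the Pcbp1 knockdown, 17 of the 46 genes fell, 2 rose and 27 passed no test (edgeR quasi-likelihood test, adjusted p under 0.05 over 11574 genes). Of all genes tested, 26.7% fell and 29.3% rose, 56% together. The median log2 fold change was -0.56 over the 46 genes and 0.0014 over all genes. The falls took in B-type and A-type cyclins, Cdk1, Aurkb, Ttk and the 4 checkpoint genes, and the rises were Plk1 and Incenp. In RPM, 17 genes lay lower in both Pcbp1 hairpin libraries than in either scrambled library and 3 lay higher (Plk1, Incenp and Cenpe), against 32.7% of all genes lower and 45.8% higher (78.5% together). With the replicate number as a block, 20 more of the 46 genes were called, while 30.8% of all genes fell and 32.7% rose. Whether the numbers pair the libraries is not stated, so the calls below are from the fit without the block. In that fit the number of falls rested on single libraries. Leaving out scrambled replicate 1 gave 9 falls, and leaving out Pcbp1 hairpin replicate 2 gave 13. Leaving out scrambled replicate 2 gave 29, and leaving out Pcbp1 hairpin replicate 1 gave 34.

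With CPX, 14 of the 46 genes fell and 0 rose (limma on log2(RPM + 0.5), adjusted p under 0.05 over 11464 genes). Of all genes tested, 24.8% fell and 19.9% rose, 44.7% together. At an unadjusted p under 0.05, 20 were lower and 1 was higher, and the authors' deposited table (DESeq2) also gives 1 rise, Ccnb2. The median log2 fold change was -0.65 over the 46 genes and -0.12 over all genes, and TMM scaling brought these medians to -0.52 and 0.0024. In RPM, 23 genes lay lower in both CPX libraries than in either DMSO library and 1 lay higher, Ccnb2, against 42.2% of all genes lower and 34.2% higher (76.3% together). With the replicate number as a block, 6 more of the 46 genes were called, while 26.9% of all genes fell and 22.4% rose. Without the block, the number of falls moved most with DMSO replicate 2. It was 4 without that library, 12 without CPX replicate 2, 14 without DMSO replicate 1 and 16 without CPX replicate 1.

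**Figure D2:**
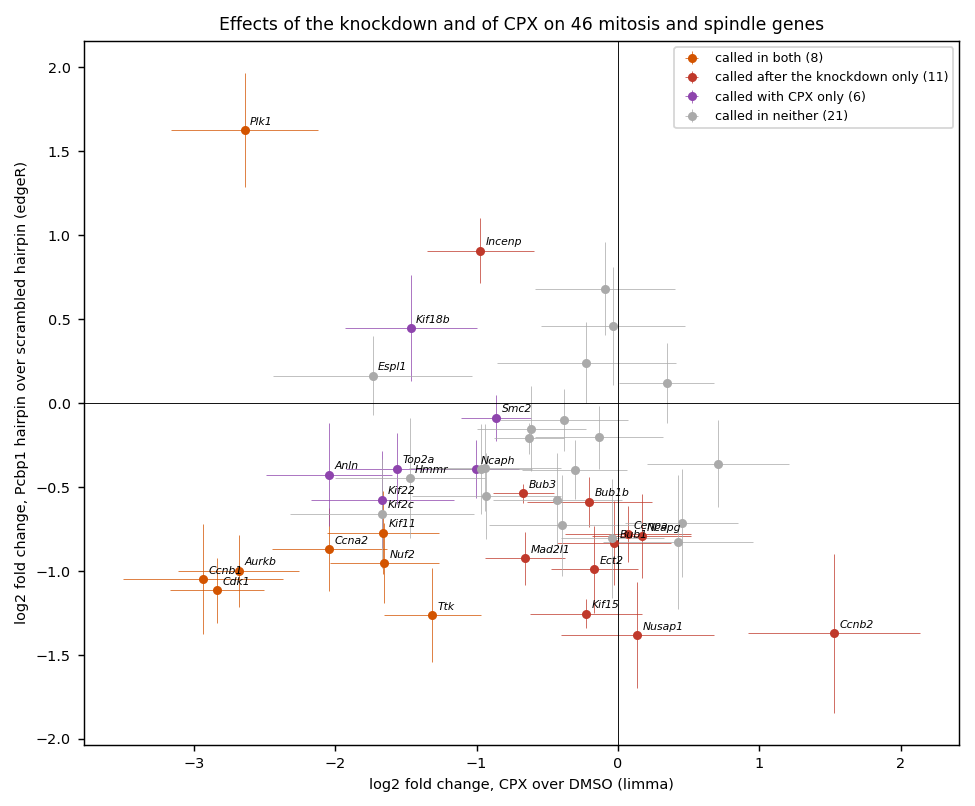
Log2 fold change of each of the 46 genes after the knockdown (y axis, Pcbp1 hairpin over scrambled hairpin) and with CPX (x axis, CPX over DMSO), with bars for the SE, coloured by where the gene was called. The 7 genes that fell in both lie at the lower left, and Plk1 is alone in having risen after the knockdown and fallen with CPX.

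Ahead of the separate genes stands a pattern within the groups. All 46 genes were higher in replicate 1 than in replicate 2 of the Pcbp1 hairpin, by a median of 1.55-fold, and all 46 were higher in replicate 1 of the scrambled hairpin, by 1.43-fold. Over all genes tested the share higher in replicate 1 was 54.8% with the Pcbp1 hairpin and 51.5% with the scrambled hairpin. With CPX, 38 of the 46 were higher in replicate 1, by a median of 1.59-fold over the 46, against 43.8% of all genes. With DMSO, 45 of the 46 were higher in replicate 2, by 1.84-fold, while 40.8% of all genes were higher in replicate 1. The genes thus moved together between libraries of the same treatment. In the knockdown experiment this went with the CD8 markers, and Klrk1, an NK and cytotoxic T cell receptor, was at 49.8 and 24.97 RPM with the Pcbp1 hairpin, against 67.2 and 26.5 RPM with the scrambled hairpin. In the DMSO libraries the CD8 sum was nearly equal. The part of other cells in the result was not tested.

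The size of these steps differed among the genes. Ccnb2 had the widest in the knockdown experiment, 2.73-fold between the Pcbp1 hairpin libraries and 2.14-fold between the scrambled ones. Bub3 had the narrowest with the Pcbp1 hairpin, with levels of 144 and 141 RPM under the Pcbp1 hairpin, against 194 and 189 RPM under the scrambled hairpin. The 8 genes that were higher in CPX replicate 2 were Bub3, Mad2l1, Cenpa, Incenp, Ect2, Top2a, Ncaph and Smc2. Kif15 alone was lower in DMSO replicate 2.

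**Figure D3:**
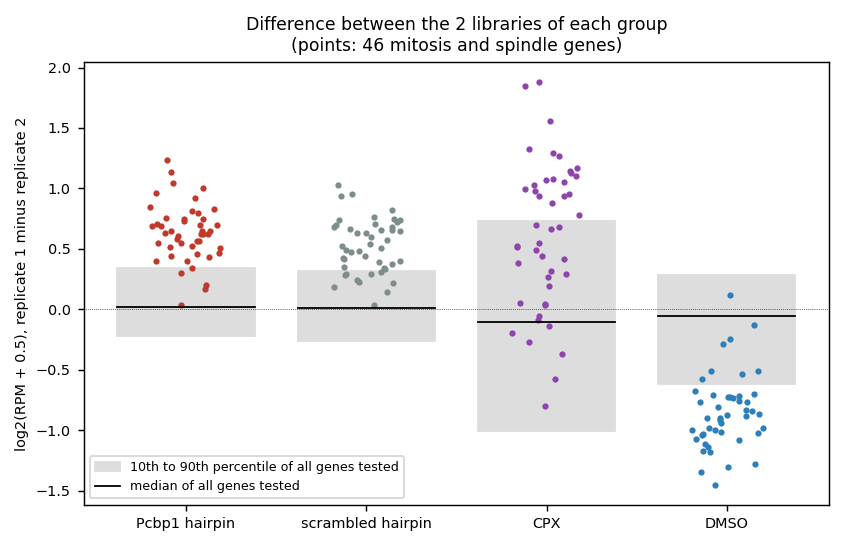
Log2 difference of replicate 1 minus replicate 2 for each of the 46 genes in each group (points), with the median (line) and the 10th to 90th percentile (grey) of all genes tested. All points lie above 0 for both hairpins, 38 do so for CPX, and 45 lie below 0 for DMSO.

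Single libraries set against each other show how far the steps reach. Pcbp1 hairpin replicate 1 was lower than scrambled replicate 1 for 36 of the 46 genes, with a median log2 difference of -0.44, and 42.7% of all genes were lower. Pcbp1 hairpin replicate 2 was lower than scrambled replicate 2 also for 36, with a median of -0.45, and 44.2% of all genes were lower. The libraries of each comparison have like CD8 levels, and 34 genes were lower in both comparisons and 8 higher in both (Plk1, Cdc20, Espl1, Cenpe, Cenpf, Incenp, Kif18b and Ncapd2). The share of all genes lower or higher in both was not computed, so these counts are not shown to exceed it. The part of CD8 cells in them was not tested. Across the numbers the picture was uneven. Pcbp1 hairpin replicate 1 was lower than scrambled replicate 2 for 17 genes (median 0.17, with 41.4% of all genes lower). Pcbp1 hairpin replicate 2 was lower than scrambled replicate 1 for 43 (median -1.07, with 45.97% of all genes lower). CPX replicate 1 was lower than DMSO replicate 1 for 24 genes (median -0.07, with 53.8% of all genes lower). It was lower than DMSO replicate 2 for 37 (median -0.90, with 57.7% of all genes lower). CPX replicate 2 was lower than DMSO replicate 1 for 35 (median -0.54, with 50.4% of all genes lower). It was lower than DMSO replicate 2 for 45 (median -1.20, with 53.7% of all genes lower).

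The summed level of the 46 genes puts these steps on a single scale. It was 1508 and 1072 RPM with the Pcbp1 hairpin, against 1909 and 1468 RPM with the scrambled hairpin. With CPX it was 2106 and 1446 RPM, against 2108 and 3539 RPM with DMSO. The sums overlapped between groups in the knockdown experiment. In the CPX experiment CPX replicate 1 was at the level of DMSO replicate 1.

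**Figure D4:**
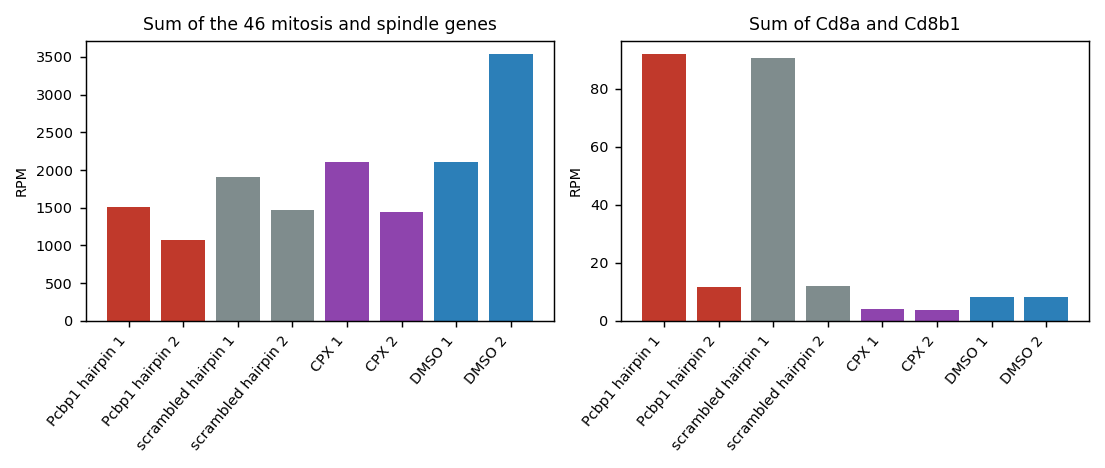
Summed RPM in each library (y axes) of the 46 genes (left) and of the CD8 markers Cd8a and Cd8b1 (right). The Pcbp1 hairpin libraries are at 1508 and 1072 RPM and the scrambled ones at 1909 and 1468 RPM, and DMSO replicate 2 stands above the other libraries at 3539 RPM. The CD8 sum is high in replicate 1 of both hairpins.

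Of the cyclins, Cdk1 and its activators (6 genes), 4 fell after the knockdown and 3 fell with CPX. For this and the later roles, the shares of all genes that fell were 26.7% after the knockdown and 24.8% with CPX. Cdk1, the kinase that drives entry into mitosis, was at 45.1 and 31.3 RPM with the Pcbp1 hairpin, against 89.7 and 64.0 RPM with the scrambled hairpin. It fell by 1.11 ± 0.20 on the log2 scale (SE, n = 2 each, edgeR adjusted p = 0.0021), and the groups did not overlap. Its levels with CPX were 13.2 and 10.9 RPM, against 69.3 and 114 RPM with DMSO. This was 7.15-fold lower on the scale of log2(RPM + 0.5), with a log2 fold change of -2.84 ± 0.33 (limma adjusted p = 0.0033). Cdk1 was therefore low in every treated library of both experiments.

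Ccnb1, a B-type cyclin and the main partner of CDK1, was at 24.3 and 12.2 RPM with the Pcbp1 hairpin, against 44.2 and 26.2 RPM with the scrambled hairpin. The higher Pcbp1 hairpin library lay just under the lower scrambled one, and the fall of 1.05 ± 0.33 on the log2 scale passed the test (edgeR adjusted p = 0.027). In CPX-treated cells the gene was at 10.2 and 3.85 RPM, against 35.9 and 74.0 RPM with DMSO, a log2 fold change of -2.94 ± 0.56 (limma adjusted p = 0.011). Ccna2, the A-type cyclin that acts from S phase into early mitosis, was at 38.4 and 24.8 RPM with the Pcbp1 hairpin, against 65.8 and 41.6 RPM with the scrambled hairpin. Its log2 fold change was -0.87 ± 0.25 (edgeR adjusted p = 0.019). With CPX it was at 28.1 and 17.4 RPM, against 67.3 and 128 RPM with DMSO, a log2 fold change of -2.04 ± 0.41 (limma adjusted p = 0.012). For both cyclins each CPX library lay well under each DMSO library.

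Ccnb2, the second B-type cyclin, had a different pattern. It was at 4.96 and 1.82 RPM with the Pcbp1 hairpin, against 11.2 and 5.24 RPM with the scrambled hairpin, a fall of 1.37 ± 0.47 on the log2 scale (edgeR adjusted p = 0.041). Its levels with CPX were 49.9 and 20.4 RPM, against 6.66 and 17.2 RPM with DMSO, and the log2 fold change of 1.53 ± 0.61 did not pass (limma adjusted p = 0.090), though it did without CPX replicate 2 or DMSO replicate 2. Both CPX libraries were higher than both DMSO libraries. The CDC25 phosphatases passed neither test, with log2 fold changes of -0.36 after the knockdown and 0.71 with CPX for Cdc25b and of -0.83 and 0.42 for Cdc25c. The knockdown calls of Ccnb1, Ccnb2 and Ccna2 were lost without scrambled replicate 1, that of Ccnb2 also without Pcbp1 hairpin replicate 2. All 3 were lost with DESeq2 as run here (Ccnb2 with limma too). The authors' deposited table (DESeq2) did call Ccnb2 as fallen (log2 fold change -1.12, DESeq2 adjusted p = 0.0095), and it called neither Ccnb1 nor Ccna2. The CPX call of Ccna2 was lost without DMSO replicate 2.

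Among the 4 mitotic kinases, 2 fell and 1 rose after the knockdown, and 3 fell with CPX. Plk1, the polo-like kinase of centrosome maturation and mitotic entry, was at 8.31 and 4.76 RPM with the Pcbp1 hairpin, against 2.40 and 1.54 RPM with the scrambled hairpin. These levels rest on 129 and 68 reads with the Pcbp1 hairpin, against 34 and 22 reads with the scrambled hairpin. The log2 fold change was 1.63 ± 0.34 (edgeR adjusted p = 0.0050), so Plk1 rose while Cdk1, Ccnb1 and Ccna2 fell. In CPX-treated cells the gene was at 10.1 and 4.52 RPM, against 31.4 and 64.3 RPM with DMSO, a log2 fold change of -2.64 ± 0.52 (limma adjusted p = 0.012). Plk1 shared the replicate steps of the other genes and still lay higher in each Pcbp1 hairpin library than in each scrambled one.

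Aurkb, the catalytic subunit of the chromosomal passenger complex, was at 9.09 and 5.73 RPM with the Pcbp1 hairpin, against 14.9 and 12.7 RPM with the scrambled hairpin. Its log2 fold change was -0.998 ± 0.21 (edgeR adjusted p = 0.0055). With CPX it was at 4.22 and 4.11 RPM, against 20.4 and 42.5 RPM with DMSO, a log2 fold change of -2.68 ± 0.43 (limma adjusted p = 0.0064). The groups did not overlap in either experiment. Ttk, the kinase that starts checkpoint signalling at kinetochores, was at 6.06 and 3.99 RPM with the Pcbp1 hairpin, against 13.9 and 8.59 RPM with the scrambled hairpin, a fall of 1.26 ± 0.28 on the log2 scale (edgeR adjusted p = 0.0065). Its levels with CPX were 4.58 and 3.95 RPM, against 9.41 and 13.6 RPM with DMSO, a log2 fold change of -1.31 ± 0.34 (limma adjusted p = 0.027). Ttk fell in both experiments, with a difference between the effects of 0.24 ± 0.46 that did not pass (limma adjusted p = 0.69). Aurka, the aurora kinase of the spindle poles, passed neither test (log2 fold changes of -0.15 and -0.61). The CPX call of Ttk was lost without either DMSO library.

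**Figure D5:**
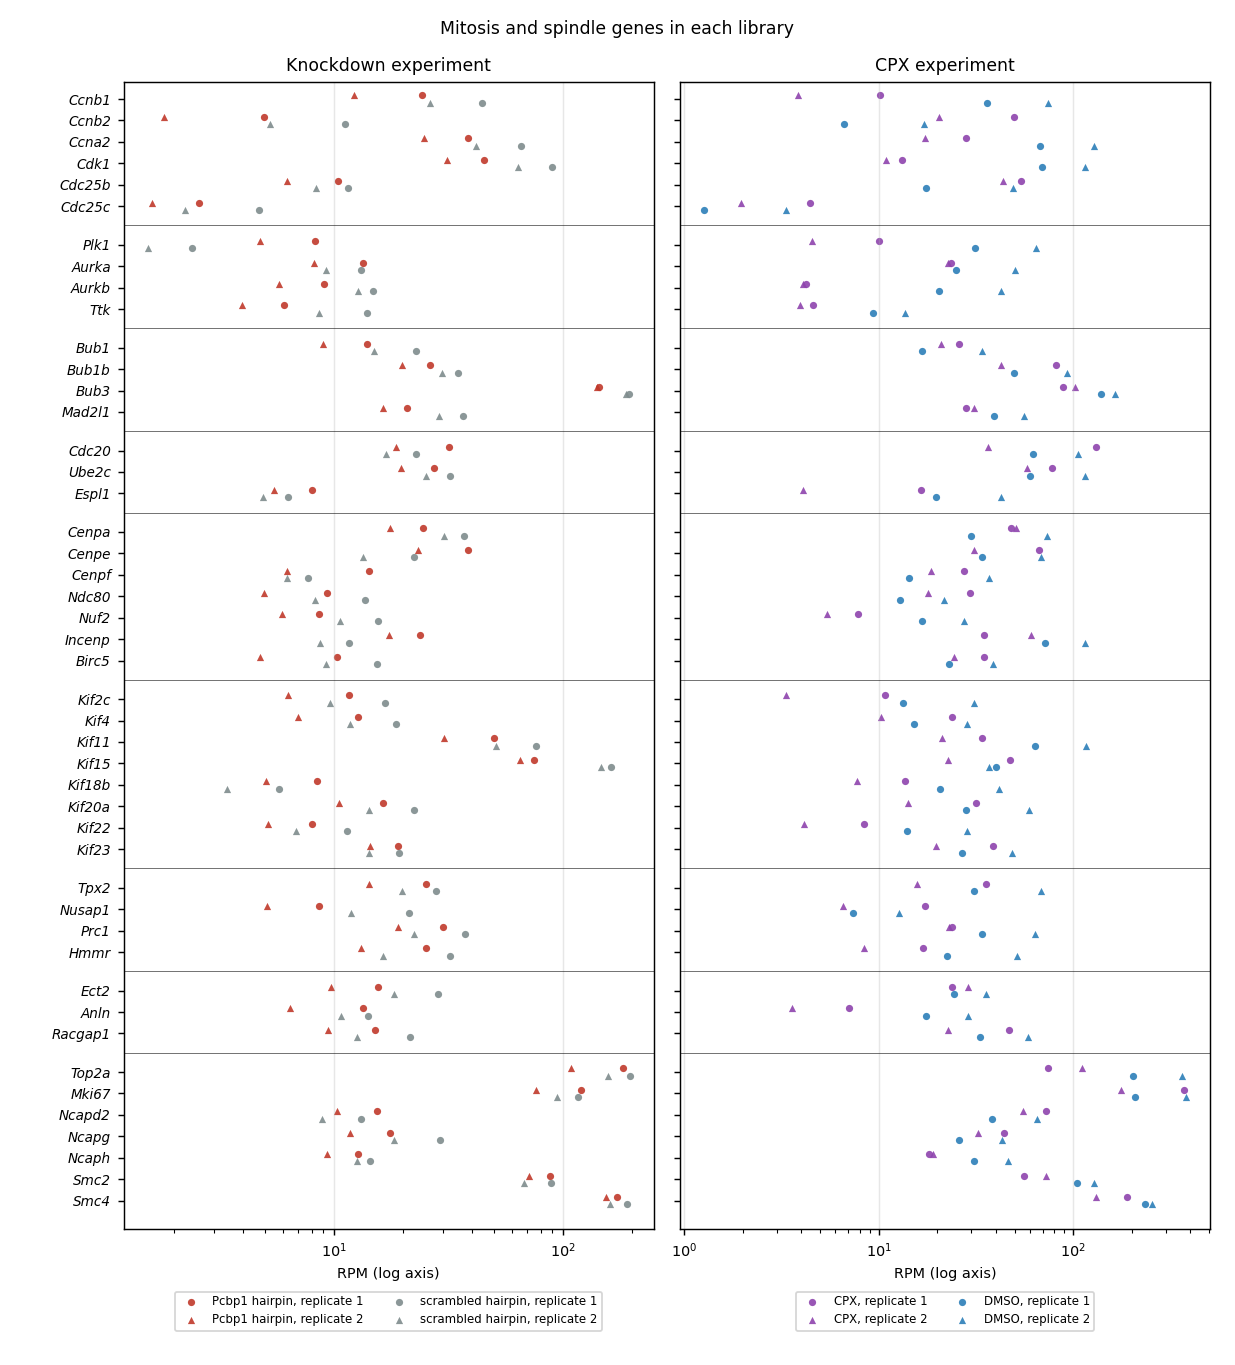
RPM in every library (log axis) of the 46 genes, by role, in the knockdown experiment (left) and the CPX experiment (right), with the upper points of a gene for the Pcbp1 hairpin or CPX and the lower ones for the scrambled hairpin or DMSO. Cdk1 is lower in both treatments than in either library of the matching control, and Plk1 is higher with the Pcbp1 hairpin and lower with CPX.

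The 4 spindle checkpoint genes all fell after the knockdown, and 0 of the 4 passed the test with CPX (limma; 1 was lower at an unadjusted p under 0.05). The products of Bub1b, Bub3 and Mad2l1 are part of the complex that inhibits CDC20 until kinetochores are attached. Bub3, the subunit that brings the complex to kinetochores, lay lower in both Pcbp1 hairpin libraries (values above) by 0.54 ± 0.06 on the log2 scale (edgeR adjusted p = 0.00018). Mad2l1, the MAD2 protein that binds CDC20, was at 20.8 and 16.4 RPM with the Pcbp1 hairpin, against 36.8 and 28.8 RPM with the scrambled hairpin, a log2 fold change of -0.92 ± 0.16 (edgeR adjusted p = 0.0018). Bub1b, the BUBR1 protein, was at 26.2 and 19.8 RPM with the Pcbp1 hairpin, against 34.7 and 29.5 RPM with the scrambled hairpin, a log2 fold change of -0.59 ± 0.15 (edgeR adjusted p = 0.012). These 3 calls held when each library in turn was left out. Bub1, a kinetochore kinase, had a log2 fold change of -0.83 (edgeR adjusted p = 0.023), and this call was lost without Pcbp1 hairpin replicate 2 or scrambled replicate 1. With CPX, Bub3 was at 88.7 and 102 RPM, against 139 and 165 RPM with DMSO, and its log2 fold change of -0.67 missed the threshold (limma adjusted p = 0.051), which it passed without CPX replicate 2. The CPX values were -0.66 for Mad2l1, -0.20 for Bub1b and -0.03 for Bub1.

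The 3 anaphase genes passed no test in either experiment, and 0 of them had an unadjusted p under 0.05 (edgeR and limma). Cdc20, the activator of the anaphase-promoting complex that the checkpoint inhibits, was at 31.7 and 18.7 RPM with the Pcbp1 hairpin, against 22.8 and 16.8 RPM with the scrambled hairpin (log2 fold change 0.24). In CPX-treated cells the gene was at 132 and 36.3 RPM, against 61.9 and 106 RPM with DMSO (log2 fold change -0.22), and the CPX libraries enclosed the DMSO libraries. Ube2c, the ubiquitin-conjugating enzyme of that complex, had log2 fold changes of -0.40 after the knockdown, which passed without Pcbp1 hairpin replicate 1 or scrambled replicate 2, and of -0.31 with CPX. Espl1, the protease separase that cleaves cohesin, had 0.16 after the knockdown. With CPX Espl1 was at 16.5 and 4.11 RPM, against 19.7 and 42.4 RPM with DMSO, and its log2 fold change of -1.74 ± 0.71 did not pass (limma adjusted p = 0.095). It passed without CPX replicate 1 or DMSO replicate 1, and Cdc20 passed in the knockdown without Pcbp1 hairpin replicate 2.

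Of the 7 centromere, kinetochore and passenger genes, 2 fell and 1 rose after the knockdown, and 1 fell with CPX. Incenp, the scaffold that holds Aurkb in the passenger complex, was at 23.8 and 17.3 RPM with the Pcbp1 hairpin, against 11.6 and 8.73 RPM with the scrambled hairpin. Its log2 fold change was 0.91 ± 0.19 (edgeR adjusted p = 0.0052), so within the same complex Incenp rose and Aurkb fell. With CPX Incenp was at 34.8 and 60.9 RPM, against 71.7 and 115 RPM with DMSO, and the log2 fold change of -0.97 did not pass (limma adjusted p = 0.085). Birc5, survivin, another subunit, had log2 fold changes of -0.81 and -0.04 and passed neither test. Cenpa, the histone variant that marks centromeres, was at 24.4 and 17.6 RPM with the Pcbp1 hairpin, against 37.0 and 30.2 RPM with the scrambled hairpin, a log2 fold change of -0.78 ± 0.17 (edgeR adjusted p = 0.0054). Nuf2, part of the NDC80 complex that binds microtubules, was at 8.63 and 5.94 RPM with the Pcbp1 hairpin, against 15.6 and 10.7 RPM with the scrambled hairpin, a log2 fold change of -0.95 ± 0.24 (edgeR adjusted p = 0.011). With CPX Nuf2 was at 7.82 and 5.41 RPM, against 16.8 and 27.6 RPM with DMSO, a log2 fold change of -1.65 ± 0.39 (limma adjusted p = 0.020). Its partner in that complex, Ndc80, passed neither test (-0.72 and 0.45). The Nuf2 calls were lost without scrambled replicate 1 in the knockdown and without DMSO replicate 2 in the CPX experiment. Cenpe, a kinetochore motor, lay higher in both Pcbp1 hairpin libraries, at 38.4 and 23.4 RPM against 22.4 and 13.4 RPM with the scrambled hairpin, without passing (log2 fold change 0.68, edgeR adjusted p = 0.070). Cenpe had -0.09 with CPX, Cenpa had 0.07, and Cenpf, a large kinetochore protein, had 0.46 after the knockdown and -0.03 with CPX.

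Of the 8 kinesin motors, 2 fell after the knockdown and 3 fell with CPX. Kif15, which acts with Kif11 in keeping the spindle poles apart, had the smallest p of all 46 genes in the knockdown. It was at 74.9 and 64.9 RPM with the Pcbp1 hairpin, against 163 and 147 RPM with the scrambled hairpin, a log2 fold change of -1.25 ± 0.08 (edgeR adjusted p = 2.95e-05). With CPX it was at 47.6 and 22.6 RPM, against 40.1 and 37.0 RPM with DMSO, a log2 fold change of -0.23 ± 0.40, and the CPX libraries enclosed the DMSO libraries. Kif11, the motor that pushes the poles apart, was at 50.3 and 30.1 RPM with the Pcbp1 hairpin, against 76.3 and 51.3 RPM with the scrambled hairpin, a log2 fold change of -0.77 ± 0.25 (edgeR adjusted p = 0.030). Its levels with CPX were 33.9 and 21.2 RPM, against 63.4 and 116 RPM with DMSO, a log2 fold change of -1.66 ± 0.40 (limma adjusted p = 0.021). Kif11 thus fell in both experiments, and Kif15 passed only the knockdown test.

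Kif22, a motor that pushes chromosome arms, was at 8.44 and 4.16 RPM with CPX, against 13.9 and 28.6 RPM with DMSO, a log2 fold change of -1.67 ± 0.51 (limma adjusted p = 0.043). Kif18b, which shortens astral microtubules, was at 13.7 and 7.74 RPM with CPX, against 20.6 and 41.7 RPM with DMSO, a log2 fold change of -1.47 ± 0.47 (limma adjusted p = 0.049). That adjusted p lay at the threshold, and the Kif18b call was lost in 6 other settings, TMM scaling and a pseudocount of 1 among them. After the knockdown Kif22 had -0.57 and Kif18b 0.45, and neither passed. The other kinesins passed neither test. Their knockdown and CPX log2 fold changes were -0.66 and -1.67 for Kif2c, a microtubule depolymerase, and -0.73 and -0.40 for Kif4, a chromosome-bound motor. They were -0.55 and -0.93 for Kif20a and -0.10 and -0.38 for Kif23, both motors of the central spindle. Without DMSO replicate 2 or CPX replicate 2 the CPX calls of Kif11, Kif18b and Kif22 were lost, and without Pcbp1 hairpin replicate 2 or scrambled replicate 1 the knockdown call of Kif11 was lost, as it was with DESeq2. The Kif22 call was also lost with quantile normalization or no filter.

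In the group of spindle assembly and midzone genes (4 genes), 1 fell after the knockdown and 0 passed with CPX (limma; 2 were lower at an unadjusted p under 0.05). Nusap1, which bundles microtubules near chromosomes, was at 8.57 and 5.10 RPM with the Pcbp1 hairpin, against 21.4 and 11.9 RPM with the scrambled hairpin, a log2 fold change of -1.38 ± 0.32 (edgeR adjusted p = 0.0076). In CPX-treated cells the gene was at 17.3 and 6.60 RPM, against 7.37 and 12.8 RPM with DMSO, and the libraries overlapped (log2 fold change 0.14). Tpx2, which activates Aurora A on the spindle, had -0.39 after the knockdown and -0.94 with CPX. Prc1, which cross-links the midzone, had -0.39 and -0.97, and Hmmr, a spindle pole protein and hyaluronan receptor, had -0.45 and -1.47. Prc1 and Hmmr lay lower in both CPX libraries than in either DMSO library without passing the limma test, though the authors' deposited table (DESeq2) called both as fallen.

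Of the 3 cytokinesis genes, 1 fell after the knockdown and 1 fell with CPX, and the difference between the experiments was called for 0 of them (limma; 1 had a higher knockdown effect at an unadjusted p under 0.05). Ect2, the exchange factor that activates RhoA at the cleavage site, was at 15.5 and 9.72 RPM with the Pcbp1 hairpin, against 28.5 and 18.2 RPM with the scrambled hairpin, a log2 fold change of -0.99 ± 0.26 (edgeR adjusted p = 0.013). Its value with CPX was -0.17. Anln, the contractile ring scaffold anillin, was at 7.03 and 3.59 RPM with CPX, against 17.4 and 28.8 RPM with DMSO, a log2 fold change of -2.05 ± 0.45 (limma adjusted p = 0.016). Its value after the knockdown was -0.43 and did not pass. Racgap1, which binds Kif23 in the centralspindlin complex, passed neither test (-0.58 and -0.43). The call of Ect2 was lost without scrambled replicate 1 and that of Anln without DMSO replicate 2.

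Of the 7 chromosome structure genes, 1 fell after the knockdown and 3 fell with CPX. Top2a, the topoisomerase that untangles sister chromatids, was at 74.5 and 111 RPM with CPX, against 202 and 361 RPM with DMSO, a log2 fold change of -1.56 ± 0.36 (limma adjusted p = 0.018). After the knockdown it was at 183 and 108 RPM, against 196 and 158 RPM with the scrambled hairpin, and did not pass (log2 fold change -0.39). The groups overlapped in that experiment. Smc2, an ATPase core subunit of both condensins, was at 55.9 and 72.2 RPM with CPX, against 105 and 128 RPM with DMSO, a log2 fold change of -0.86 ± 0.25 (limma adjusted p = 0.036). Ncaph, the condensin I kleisin, was at 18.2 and 19.0 RPM with CPX, against 31.0 and 46.5 RPM with DMSO, a log2 fold change of -1.01 ± 0.31 (limma adjusted p = 0.043). Ncapg, another condensin I subunit, was instead called in the knockdown, at 17.6 and 11.7 RPM with the Pcbp1 hairpin against 29.1 and 18.2 RPM with the scrambled hairpin (log2 fold change -0.79 ± 0.25, edgeR adjusted p = 0.028). Ncapg had 0.17 with CPX, and Smc2 and Ncaph had -0.09 and -0.39 after the knockdown.

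The remaining structure genes passed neither test. The knockdown and CPX log2 fold changes were 0.12 and 0.35 for Ncapd2 and -0.21 and -0.63 for Smc4, both condensin subunits. Mki67, the proliferation marker that coats mitotic chromosomes, was at 120 and 76.8 RPM with the Pcbp1 hairpin, against 116 and 94.8 RPM with the scrambled hairpin. With CPX it was at 372 and 176 RPM, against 207 and 381 RPM with DMSO. Its groups overlapped in both experiments, with log2 fold changes of -0.20 and -0.13. The Ncaph call was lost when any 1 library was left out, that of Top2a without CPX replicate 1 or DMSO replicate 2, that of Smc2 without either DMSO library, and that of Ncapg without Pcbp1 hairpin replicate 2 or scrambled replicate 1. Quantile normalization also ended the calls of Ncaph and Smc2, a fit with no filter that of Ncaph, a fit with no trend of the spread that of Smc2, and limma that of Ncapg.

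Across the experiments, 7 genes fell in both (Ccnb1, Ccna2, Cdk1, Aurkb, Ttk, Nuf2 and Kif11), which is 7 of the 17 knockdown falls and 7 of the 14 CPX falls. The share of all genes that fell in both was not computed, so this overlap is not shown to exceed that of all genes. A further 10 fell after the knockdown only, 6 with CPX only, and 21 were called in neither. Over the 46 genes the effects of the experiments had a Pearson correlation of -0.10 and a Spearman correlation of -0.02, a description across genes that are not independent. Being called in only 1 experiment does not show a difference, so the effects were compared in a single limma fit over all 8 libraries, as the knockdown effect minus the CPX effect. The experiments also differ in RNA selection, in transduction and in the unit of the deposited values. A difference between the effects of the treatments cannot be told apart from a part of these. The difference was called for 7 of the 46 genes, 6 with a higher knockdown effect and 1 with a lower, against 35.2% of all 10429 genes higher and 16.1% lower (51.3% together). The median difference was 0.51 on the log2 scale over the 46 genes and 0.40 over all genes, and with TMM scaling within each experiment it was 0.14 and 0.04.

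The widest of these differences belonged to Plk1, at 4.13 ± 0.69 on the log2 scale (limma adjusted p = 0.0025), with a rise after the knockdown and a fall with CPX. Cdk1 had a difference of 1.84 ± 0.43 (limma adjusted p = 0.010) and Aurkb of 1.80 ± 0.52 (limma adjusted p = 0.023). Both fell in both experiments, and the falls were larger in the CPX experiment. Incenp had a difference of 1.95 ± 0.49 (limma adjusted p = 0.013). Kif18b, at 1.97 ± 0.64 (limma adjusted p = 0.036), and Smc2, at 0.89 ± 0.30 (limma adjusted p = 0.040), were no longer called with TMM scaling within each experiment. Kif18b also lost its call without Pcbp1 hairpin replicate 1, scrambled replicate 2, CPX replicate 2 or DMSO replicate 2. Smc2 lost its call without Pcbp1 hairpin replicate 1 or 2, scrambled replicate 2, CPX replicate 1 or either DMSO library. Ccnb2 was the gene with a lower knockdown effect, at -2.73 ± 0.94 (limma adjusted p = 0.043), and its call was lost without Pcbp1 hairpin replicate 2, without either scrambled library, without CPX replicate 1 or without DMSO replicate 1. Aurkb lost its call without Pcbp1 hairpin replicate 1 or either scrambled library, and Incenp without Pcbp1 hairpin replicate 1 or scrambled replicate 2. For the checkpoint genes and Kif15, called only in the knockdown, no difference passed the test (from -0.68 for Bub1 to 0.24 for Bub3, and -0.92 for Kif15).

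The authors' deposited table of DESeq2 results called 15 falls and 2 rises among the 46 genes in the knockdown, and its 2 rises were Plk1 and Incenp. It called 16 genes the same way as the edgeR test and gave the same sign for all 46. Kif4 was called as fallen there and not with edgeR (DESeq2 adjusted p = 0.045), and Ccnb1, Ccna2 and Kif11 were called only with edgeR. For CPX the authors' deposited table called 18 falls and 1 rise, with 14 genes called the same way as in the limma test and 44 of the same sign. Espl1, Kif2c, Prc1 and Hmmr were called as fallen there and not with limma (DESeq2 adjusted p = 0.034, 0.021, 0.030 and 0.011).

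Other genes of the mitotic programme were counted in lists of their own. Of all genes tested, 29.3% rose and 26.7% fell after the knockdown, and 19.9% rose and 24.8% fell with CPX. Of 29 regulators of the programme, 9 rose and 7 fell after the knockdown (31.0% and 24.1%, median log2 fold change 0.21). With CPX, 6 rose and 9 fell (20.7% and 31.0%, median -0.54). These shares lay near those of all genes, with the CPX falls somewhat above. Trp53, which encodes p53, was at 49.6 and 50.8 RPM with the Pcbp1 hairpin, against 11.8 and 11.6 RPM with the scrambled hairpin, a log2 fold change of 1.99 (edgeR adjusted p = 1.26e-05). Trp53 also rose with CPX, at 296 and 182 RPM, against 79.1 and 106 RPM with DMSO (log2 fold change 1.34, limma adjusted p = 0.019). Cdc25a, the CDC25 phosphatase that acts from G1 on, was at 50.5 and 49.2 RPM with the Pcbp1 hairpin, against 22.3 and 21.3 RPM with the scrambled hairpin (edgeR adjusted p = 6.59e-05). With CPX Cdc25a was at 7.35 and 4.57 RPM, against 78.4 and 85.7 RPM with DMSO (log2 fold change -3.71, limma adjusted p = 0.0025). It thus moved in opposite directions, like Plk1. Lin9 and Rbbp4, both MuvB subunits, fell after the knockdown by 0.95 and 0.48 on the log2 scale (edgeR adjusted p = 0.00043 and 0.00039). The MuvB subunits did not move as a set. Lin37 rose by 0.85 (edgeR adjusted p = 0.0057), and Lin52 and Lin54 were not called (-0.47 and -0.11). With CPX Lin54 rose by 1.47 (limma adjusted p = 0.010), and Lin9, Rbbp4, Lin37 and Lin52 were not called. With CPX, Rb1, the retinoblastoma protein that restrains E2F factors, rose by 2.20, and E2f5 and Tfdp1, an E2F factor and an E2F partner, had log2 fold changes of -2.20 and -1.96 (limma adjusted p = 0.0041, 0.0046 and 0.0028).

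Of 62 further mitosis genes, 59 were matched to a line and 58 tested in the knockdown. There 31 fell and 4 rose (53.4% and 6.90%, against 26.7% and 29.3% of all genes, median log2 fold change -0.79). With CPX, 10 of 59 fell and 3 rose (16.9% and 5.08%, against 24.8% and 19.9% of all genes, median -0.22). Cenpi, an inner kinetochore protein, was at 10.1 and 6.29 RPM with the Pcbp1 hairpin, against 25.5 and 17.5 RPM with the scrambled hairpin (log2 fold change -1.49, edgeR adjusted p = 0.0016), and the kinetochore proteins Cenpq, Mis12 and Zw10 had log2 fold changes of -0.59, 1.37 and 1.201, all called. With CPX, the cyclin F gene Ccnf and Cenpo rose by 2.45 and 2.11 on the log2 scale, while Ckap5, a microtubule polymerase, had -1.96 and Pbk, a mitotic kinase, had -3.72, all called. Of 14 genes of the anaphase-promoting complex and its regulators, 9 fell (64.3%) and 0 rose with CPX (limma, median -1.37). At an unadjusted p under 0.05, 1 was higher. After the knockdown 5 fell and 2 rose (edgeR, 35.7% and 14.3%, median -0.06). Cdc23, a core subunit, was at 5.68 and 5.04 RPM with CPX, against 55.1 and 61.9 RPM with DMSO (log2 fold change -3.33, limma adjusted p = 0.0024). Its reads may be shared with Kif20a, which overlaps it on the other strand. Fbxo5, an inhibitor of the complex, had -2.56 with CPX, Cdc16 had -2.27 and Anapc2 had -1.48, all called. After the knockdown Anapc1 had 0.77, Anapc4 -0.59, Anapc10 -0.86 and Cdc16 -0.76, all called.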

How the data were processed

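Per the submitters' processing notes, the tools were cutadapt, STAR, HTSeq and DESeq and the build was mm9, with no versions or annotation stated. The authors' deposited table of libraries carries the name RPM, but its knockdown values are raw counts, and its CPX values are a score, counts rescaled by a common factor and rounded by the authors. The authors' deposited result tables hold a mean signal, log2 fold changes, test scores and p-values from DESeq2, per the file headers. From the line labelled Ins1 on, this table's gene labels are displaced by a line, and 14453 of 14805 lines could be given to a single gene through the mean signals of both result tables. The design had allowed for both units.

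RPM was computed here as a value over its library's total times 1e+06. Genes at 1 RPM or more in at least 2 libraries were tested, with edgeR 4.0.16 (quasi-likelihood, TMM) for knockdown counts and limma 3.58.1 (trended variance) on log2(RPM + 0.5) for CPX and for the difference, in R 4.3.3. Calls needed a Benjamini-Hochberg adjusted p under 0.05 over all genes tested. For the knockdown, SE is the absolute log2 fold change divided by the root of edgeR's F. Only the knockdown fit used TMM. DESeq2 1.42.0, other scalings, filters and pseudocounts, a replicate block and each library left out were the alternatives. The genes and lists were chosen with earlier results of these data known. All 46 genes are named, with every library's value for up to 3 called genes with the smallest p per role and comparison, and other lists with up to 4 genes of smallest p, of which 1 is not reported here. Ccnb2, Cdc20, Espl1, Cenpe, Mki67, Bub3 with CPX and some uncalled values were added after their values were seen. The same holds for Lin37, Lin52, Lin54 and Trp53 with CPX.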

Additional observations from a re-analysis of the deposited data

How the results depend on the processing

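With 2 libraries per group, counts of calls rested on single libraries. Leaving out each library in turn gave 9 to 34 falls and 2 to 5 rises in the knockdown, where all genes gave 2583 to 2751 falls and 2843 to 3023 rises, and 4 to 16 falls and 0 to 1 rises with CPX, where all genes gave 1233 to 3745 falls and 1285 to 1887 rises. For the difference it gave 2 to 9 genes higher and 0 to 3 lower, and 2825 to 4720 of all genes higher and 1045 to 2153 lower. A group left with 1 library was assumed to vary like the other. Of the knockdown calls, 9 falls and 2 rises held in all 4 such fits, and of the CPX calls 4. With the replicate number as a block, 35 fell and 4 rose in the knockdown, against 30.8% and 32.7% of all genes, and 19 fell and 1 rose with CPX, against 26.9% and 22.4%. Whether the numbers pair the libraries is not stated, and same-numbered libraries deviated together at 0.29 (knockdown) and 0.10 (CPX) over 2 pairs each. The cause was not tested. With a filter of 5 RPM, which Plk1 reached in 1 knockdown library, 1 gene rose in the knockdown.

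No called gene changed sign. Signs of uncalled genes did, on the log2 scale. With limma in the knockdown, Kif23 had 0.0060 and Smc2 0.024. With TMM scaling of CPX, Bub1 had 0.10, Cenpe 0.039, Cenpf 0.093 and Birc5 0.087. With quantile normalization of CPX, Bub1 had 0.33, Bub1b 0.031, Cenpe 0.19, Cenpf 0.30, Birc5 0.32, Kif15 0.10 and Ect2 0.19. Leaving out libraries moved knockdown values between -0.54 and 0.13 for Aurka, -0.18 and 0.54 for Cdc20, -0.12 and 0.38 for Espl1, -0.25 and 0.90 for Cenpf, -0.30 and 0.12 for Kif23, -0.74 and 0.016 for Prc1, -0.98 and 0.11 for Hmmr, -0.55 and 0.055 for Mki67, -0.19 and 0.42 for Ncapd2, and -0.27 and 0.11 for Smc2. For CPX the ranges were -0.017 to 1.43 for Cdc25b, -0.13 to 0.98 for Cdc25c, -0.53 to 0.47 for Bub1, -0.67 to 0.27 for Bub1b, -1.15 to 0.70 for Cdc20, -0.78 to 0.16 for Ube2c, -0.57 to 0.71 for Cenpa, -0.64 to 0.46 for Cenpe, -0.71 to 0.64 for Cenpf and -0.41 to 0.33 for Birc5. They were -0.98 to 0.19 for Kif4, -0.76 to 0.30 for Kif15, -0.86 to 0.095 for Kif23, -0.53 to 0.80 for Nusap1, -0.44 to 0.10 for Ect2, -0.94 to 0.083 for Racgap1, -0.67 to 0.40 for Mki67, -0.036 to 0.73 for Ncapd2 and -0.20 to 0.53 for Ncapg.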

Other observations

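Genes of DNA replication and of S phase entry, which come earlier in the cycle than mitosis, were counted in the same way. Of 38 genes, 20 fell and 6 rose after the knockdown (edgeR, median log2 fold change -0.32). These were 52.6% and 15.8%, against 26.7% and 29.3% of all genes. With CPX, 14 fell and 1 rose (limma, median -0.72). These were 36.8% and 2.63%, against 24.8% and 19.9% of all genes. Orc6, of the origin recognition complex, and Ccne2, a cyclin of S phase entry, had -1.20 and -1.25 after the knockdown, and Mcm4, of the replicative helicase, had 0.96, all called. With CPX, Ung, a uracil glycosylase, had -3.24, Rfc1, the clamp loader, had -2.11 and Mcm2 had -1.64, all called.

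Of 14 cohesin and condensin II genes, 4 rose and 5 fell after the knockdown (28.6% and 35.7%, against 29.3% and 26.7% of all genes). With CPX 1 fell (7.14%, against 24.8% of all genes). The cohesin ring genes Smc1a and Smc3 each rose by 1.04 on the log2 scale after the knockdown. Stag2, another cohesin subunit, had -0.99 and Esco1, a cohesin acetyltransferase, had -0.84, both called. With CPX the called gene was Pds5a, a cohesin regulator, at -0.68.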
